A study of Mus musculus with 4 samples.

Results

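Cultured mesenchymal stem cells (MSC) from mouse bone marrow were compared with mouse embryonic stem cells. A gene belonged to the comparison when both MSC arrays, grown without and with basic fibroblast growth factor (bFGF), differed from the embryonic stem cell array in the same direction. This held for 15509 of 19938 genes measured, of which 8443 were higher and 7066 lower in both MSC arrays, while 4428 genes differed in opposite directions. All cells were from C57BL/6 mice. MSC were flushed from femurs and tibiae, kept as the cells that adhered to plastic, and grown in Coon's modified F12 medium with fetal calf serum, either without bFGF or with 1 ng/ml. Osteoblasts, shown here as levels only, were released by enzymes from the calvariae of newborn animals. The labels name the embryonic stem cells as a control and give no line, culture condition or feeder layer for them. The series was designed to compare what bFGF does to marrow MSC, and each of the 4 groups has 1 array. There is therefore no replicate check, no p-value and no SD between cultures, and the MSC arrays are not replicates of each other, since they differ in bFGF.

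Embryonic stem cells are pluripotent cells that divide quickly and are held in that state by a circuit of transcription factors around Pou5f1, Sox2 and Nanog. Marrow MSC are plastic-adherent stromal cells that can form bone, cartilage and fat, support blood formation and deposit matrix. Adherent marrow cultures of mice are also known to carry macrophages.

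Levels are log2 values from the RMA method, and every difference is the log2 level in MSC minus that in embryonic stem cells, so that 1 is 2-fold. A set of 4 levels after a gene's name is in the order embryonic stem cells, osteoblasts, MSC without bFGF, MSC with bFGF. A gene was called higher when both MSC arrays were 2-fold or more above embryonic stem cells and above their floor, the median of that array's named probe sets (6.46, 6.46, 6.29 and 6.32 in the same order). It was called lower when both were 2-fold or more below a level above the floor in embryonic stem cells. Of 10638 genes above the floor, 800 (7.52%) were called higher and 985 (9.26%) lower. These shares, taken over genes above the floor, are the background for the counts below. Lists are counted over all measured members, and a member under the floor could not be called. The median difference of genes above the floor was 0.08. The lower side lay under the floor for 262 of the 800 and 575 of the 985, so many of the sizes below depend on background signal. As yardsticks of noise, 95% of 1203 receptor genes for smell and pheromones, mostly silent in such cells, differed by -0.61 to 0.77, and probe sets for 1 gene differed with an SD of 0.38. Just inside the threshold were Atad1, Top1mt and Cep20 (higher) and Ctsf, Rnaseh2b and Dmac2 (lower). Just outside were Mrgbp, Cfl2 and Copg2 on the higher side and Gas2l3, Nsdhl and Parp16 on the lower.

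The labels were set against marker genes first. In embryonic stem cells 22 of 28 pluripotency factors were above the floor, against 7 of 28 in each MSC array. The embryonic stem cell array also carried stromal and some macrophage transcripts. Above its floor were 17 of 20 fibroblast and feeder cell markers and 16 of 26 macrophage markers, with median levels of 8.54 and 7.19. Because the floor is a median, 9908 of all 19938 genes lay above it in embryonic stem cells. The counts were 9964 in osteoblasts, 9905 in MSC without and 9880 in MSC with bFGF. The macrophage share in embryonic stem cells was nearer to this background than the fibroblast share. In MSC the macrophage list reached a median level of 6.00 without and 9.25 with bFGF. In MSC 13 and 14 of the 20 fibroblast markers were above the floor. The osteoblast array carried macrophage transcripts too, with 25 of 26 markers above its floor and a median level of 10.78. In it 18 of 20 fibroblast markers but 5 of 17 osteoblast genes (median level 5.58) were above the floor. In bulk RNA fewer cells of a type and less RNA per cell cannot be told apart, and how far these transcripts enter the results below was not tested.

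**Figure D1:**
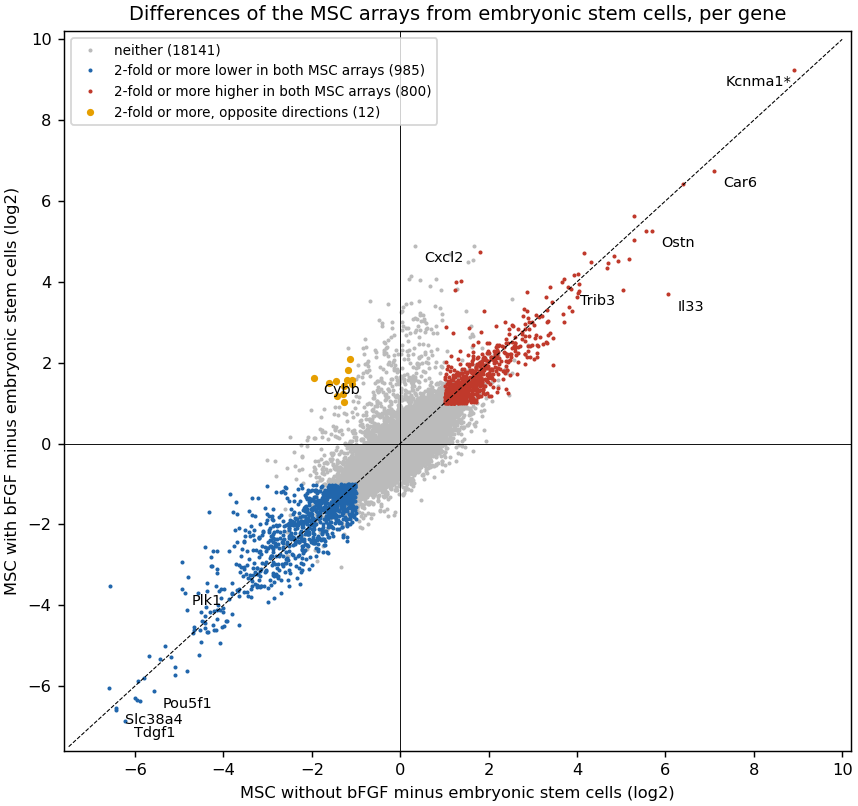
Difference from embryonic stem cells on the log2 scale in MSC without bFGF (horizontal axis) and MSC with bFGF (vertical axis), 1 point per gene, with genes called higher in red (800), lower in blue (985) and 2-fold or more in opposite directions in orange (12). The red and blue points lie along the dashed line of equal differences, and the orange points all lie below 0 without bFGF and above 0 with it; the asterisk marks a probe set annotated to Kcnma1 that has no RefSeq accession.

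Sequences are shown for 3 sets of genes whose differences are described below. The first set is promoters of mitosis genes. Mitosis genes are known to be controlled through a CCAAT box and a cell cycle homology region (CHR), which recruit repressor and activator complexes of the cell cycle. The 250 bases before the start site are printed for the 3 mitosis genes with the largest differences among those holding both elements there, taken from RefSeq (GRCm38.p6) and written 5′ to 3′ in the direction of the gene. Capitals mark CCAAT and the CHR letters TTTGAA on either strand.
Ncapg, chr5:45669675-45669924, plus strand: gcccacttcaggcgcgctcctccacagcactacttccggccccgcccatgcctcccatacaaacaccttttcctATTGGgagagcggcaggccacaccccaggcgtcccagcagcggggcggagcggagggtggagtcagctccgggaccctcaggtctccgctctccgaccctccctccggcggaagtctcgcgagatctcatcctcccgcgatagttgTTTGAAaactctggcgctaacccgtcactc
Top2a, chr11:99024190-99024439, minus strand: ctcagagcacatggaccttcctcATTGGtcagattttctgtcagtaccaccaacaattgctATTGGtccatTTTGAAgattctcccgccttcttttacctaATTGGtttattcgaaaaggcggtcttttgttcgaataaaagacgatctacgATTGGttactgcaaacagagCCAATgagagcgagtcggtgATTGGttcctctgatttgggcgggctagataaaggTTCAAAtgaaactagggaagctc
Kif11, chr19:37376132-37376381, plus strand: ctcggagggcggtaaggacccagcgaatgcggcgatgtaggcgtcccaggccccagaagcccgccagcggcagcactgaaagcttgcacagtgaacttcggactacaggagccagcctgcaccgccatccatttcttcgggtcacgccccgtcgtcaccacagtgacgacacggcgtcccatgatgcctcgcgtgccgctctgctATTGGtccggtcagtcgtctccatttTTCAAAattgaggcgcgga

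The Top2a stretch held 6 CCAAT and 2 CHR matches, and the Ncapg and Kif11 stretches 1 of each. Over 32851 promoter windows of 300 bases (250 before to 50 after the start), both strands searched, 6.95% held both elements, and among windows of genes above the floor 4.51% did. For mitosis genes it was 25 of 41 windows (61.0%). CCAAT by itself was not particular to them: it was in 73.2% of mitosis and 84.2% of cholesterol synthesis windows. It was in 55.6% of stress response windows, 53.5% of DNA replication windows and 37.2% of those of genes above the floor. The CHR letters alone were in 73.2% of mitosis windows, 18.6% of DNA replication windows, 11.5% of those of genes above the floor and 17.9% of all. The uncalled mitosis genes Bub3 and Ube2c held the CHR letters too. Every mitosis gene with a promoter but without these letters was called lower, among them Bub1. The E2F letters TTTGGCGC were in 7 of 43 DNA replication windows (16.3%), 1.04% of those of genes above the floor and 0.51% of all. The letters TTTCCCGC were in 6 of 43 DNA replication windows, 2.03% of those of genes above the floor and 1.07% of all.

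The second set is promoters of stress response genes. Atf4, the effector of the integrated stress response, is known to bind CARE elements with its partners. The stretches below are from the 4 genes called higher with the largest differences that hold the CARE letters TGATGNAA, on either strand, before the start. Capitals mark them.
Atf3, chr1:191183334-191183583, minus strand: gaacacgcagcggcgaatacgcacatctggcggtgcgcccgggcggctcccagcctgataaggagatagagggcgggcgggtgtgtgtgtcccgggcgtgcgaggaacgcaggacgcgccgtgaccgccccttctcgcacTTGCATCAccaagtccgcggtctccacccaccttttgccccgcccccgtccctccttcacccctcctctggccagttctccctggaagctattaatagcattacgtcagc
Nupr1, chr7:126625471-126625720, minus strand: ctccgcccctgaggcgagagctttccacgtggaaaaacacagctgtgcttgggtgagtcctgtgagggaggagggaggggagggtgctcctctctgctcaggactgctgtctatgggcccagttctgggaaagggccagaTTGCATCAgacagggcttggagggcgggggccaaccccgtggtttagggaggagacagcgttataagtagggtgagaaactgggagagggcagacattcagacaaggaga
Chac1, chr2:119350992-119351241, plus strand: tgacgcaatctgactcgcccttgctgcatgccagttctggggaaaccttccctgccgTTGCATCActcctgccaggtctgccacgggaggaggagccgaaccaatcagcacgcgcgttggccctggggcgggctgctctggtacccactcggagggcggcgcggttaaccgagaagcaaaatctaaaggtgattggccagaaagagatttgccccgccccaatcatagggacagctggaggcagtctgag
Pck2, chr14:55540016-55540265, plus strand: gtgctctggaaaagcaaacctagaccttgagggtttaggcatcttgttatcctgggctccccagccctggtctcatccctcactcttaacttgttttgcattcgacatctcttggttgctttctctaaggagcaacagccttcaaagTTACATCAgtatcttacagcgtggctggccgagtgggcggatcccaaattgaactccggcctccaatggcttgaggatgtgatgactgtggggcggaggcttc

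Among all windows 3.97% held these letters, among those of genes above the floor 2.16% and among those of genes called higher 4.85%. They were in 1 of 41 mitosis windows, and in 9 of 27 windows of stress response genes (33.3%). Of these 9 genes Asns, Fgf21 and Gars were not called. Atf4, Ddit3 and Sesn2 were among the stress response genes called higher without these letters, so the letters did not separate called from uncalled members. In all, 8 elements were planned and 2 more were added after the data were seen. Of the others planned, the antioxidant response letters TGACNNNGC were in 10 of 34 NRF2 gene windows (29.4%). They were also in 25.9% of stress response, 21.1% of cholesterol synthesis and 9 of 41 mitosis windows. Among windows of genes above the floor the share was 14.2%, and among all 12.4%. The octamer ATGCAAAT was in 1 of 27 pluripotency windows (3.70%), 1.18% of those of genes above the floor and 1.73% of all. The CArG box of SRF was in 5 of 20 smooth muscle gene windows (25.0%), a gene set added for this after the data were seen. It was in 1.355% of windows of genes above the floor and 1.63% of all. Of the added elements, a looser octamer, ATGCNAAT, was in 2 of 27 pluripotency windows (7.41%), 2.17% of those of genes above the floor and 3.15% of all. The AP-1 letters TGANTCA were in 8.99% of windows of genes called higher and 5.56% of those called lower. They were in 4.91% of windows of genes above the floor and 7.81% of all. A match is a description of letters, not of binding.

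**Figure D2:**
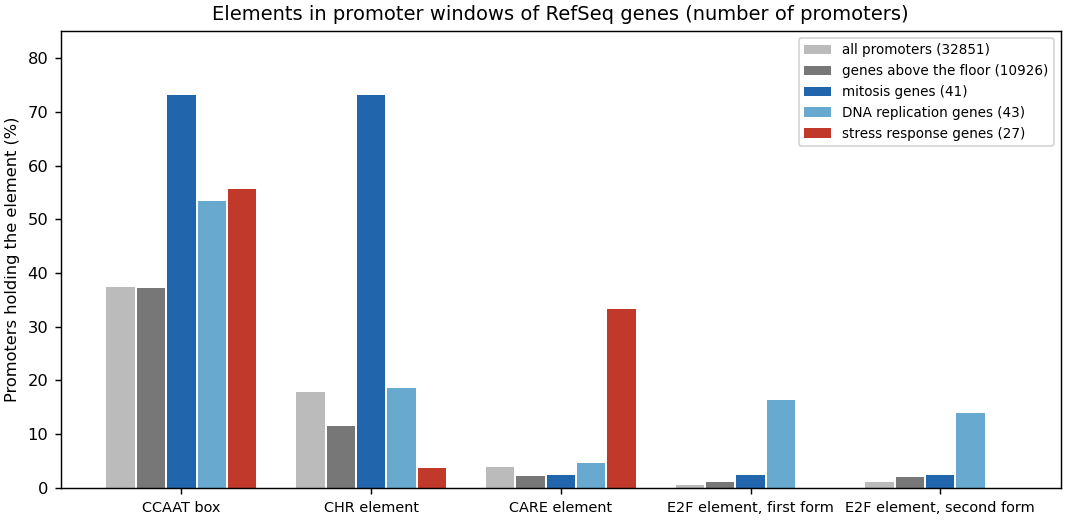
Share of 300-base promoter windows that hold each element, in percent, for all windows (32851), genes above the floor (10926), mitosis genes (41), DNA replication genes (43) and stress response genes (27). The CHR bar of mitosis genes stands at 73.2%, against 17.9% of all windows and 11.5% of those of genes above the floor. The CARE bar of stress response genes stands at 33.3%, against 3.97% and 2.16%.

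The third set is mature microRNAs from 3 gene clusters in which most precursor probe sets were below 0, chosen after their values were seen. The 8 precursors were under the floor in embryonic stem cells and none of them was called. The Mir302 and Mir367 cluster is known to be transcribed in pluripotent cells, and the cluster beside Meg3 is imprinted. Capitals mark the seed, bases 2 to 8, by which a microRNA pairs with its targets; sequences are from RefSeq (GRCm38.p6).
mmu-miR-302b-3p, chr3:127545275-127545297, plus strand: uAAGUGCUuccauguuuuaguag
mmu-miR-302c-3p, chr3:127545406-127545427, plus strand: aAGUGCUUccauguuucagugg
mmu-miR-302d-3p, chr3:127545665-127545687, plus strand: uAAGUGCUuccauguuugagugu
mmu-miR-367-3p, chr3:127545779-127545800, plus strand: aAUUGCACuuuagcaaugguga
mmu-miR-20a-5p, chr14:115044183-115044205, plus strand: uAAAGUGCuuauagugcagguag
mmu-miR-382-5p, chr12:109733781-109733802, plus strand: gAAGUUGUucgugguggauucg
mmu-miR-380-3p, chr12:109711842-109711863, plus strand: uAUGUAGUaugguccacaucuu
mmu-miR-377-3p, chr12:109740553-109740574, plus strand: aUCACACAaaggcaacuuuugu

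miR-302b-3p and miR-302d-3p share a seed, and miR-302c-3p carries the same run of letters 1 base earlier. The array measured precursors, not the mature forms. All 5 probe sets of the Mir302 and Mir367 genes were 2-fold or more lower in both MSC arrays, with a median of -1.78, but their embryonic stem cell levels of 4.04 to 5.57 were under the floor and none was called. Mir302c stood at 5.57, 2.81, 3.34 and 3.17. Of 40 microRNA genes within 300 kb of the end of Meg3, 36 were below 0 and 10 were 2-fold or more lower in both arrays, whether above the floor or not; 14 were above the floor in embryonic stem cells. Mir382 (6.23, 3.84, 3.67 and 3.44) and Mir380 (5.42, 2.64, 2.88 and 2.65) were under it, while Mir127 (6.83, 5.64, 5.28 and 5.31) was above it and called lower. All 6 probe sets of the Mir17 cluster were below 0, among them Mir20a at 5.49, 3.30, 3.84 and 5.02, and none was above the floor. Of the other 249 microRNA genes 121 were below 0, with a median of 0.02, and 1 was 2-fold or more lower and 2 higher in both arrays.

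The 15 largest differences upwards ranged down to 4.00, and 14 of them were under the floor in embryonic stem cells. The first of them, a probe set annotated to the potassium channel gene Kcnma1, stood at 3.94, 6.05, 12.86 and 13.18 but carries no RefSeq accession. The probe set that carries the RefSeq transcripts of Kcnma1 stood at 4.95, 5.20, 5.50 and 5.12, under the floor in all 4 arrays, so the large difference cannot be read as the level of that channel. The ATP-gated channel P2rx3, known from sensory neurons, stood at 5.30, 4.92, 10.58 and 10.33 on the probe set with its RefSeq transcript and at 5.49, 5.20, 5.56 and 5.70 on another without one. With the mean of the probe sets the differences of Kcnma1 and P2rx3 were 4.72 and 2.65. Of the 30 genes with the largest differences, 15 each way, Kcnma1 alone rested on a probe set without a RefSeq accession. The RNA export family member Nxf3 stood at 3.02, 3.13, 8.57 and 8.29. P2rx3 and Nxf3 lay near the embryonic stem cell level in osteoblasts. Naalad2 (3.65, 6.17, 8.82 and 8.22), Dthd1 (4.04, 4.25, 8.87 and 8.67), Tmem74 (3.99, 5.14, 8.68 and 8.33) and the cancer-testis gene Magea3 (2.86, 3.09, 7.17 and 7.36) were also under the floor in embryonic stem cells and osteoblasts and above it in both MSC arrays. The alarmin cytokine Il33 (5.21, 5.46, 11.29 and 8.90) and the trypsin Try5 (5.12, 5.32, 10.17 and 8.91) differed more without bFGF than with it. Ankrd1, a target of mechanical signalling through Yap, was higher by 4.06 (7.82 in embryonic stem cells, 9.64 in osteoblasts, 11.77 in MSC without bFGF) and was the 1 gene of the 15 above the floor in embryonic stem cells. The endotoxin receptor Tlr4 stood at 5.03, 8.07, 9.08 and 8.97.

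Among the 15 largest differences downwards were genes that osteoblasts also carried. The imprinted genes Mest (10.41, 8.76, 4.48 and 4.54) and Meg3 (10.58, 7.77, 4.90 and 5.32) were high in embryonic stem cells and osteoblasts, and neither MSC culture carried them above its floor. The heparan sulfate proteoglycan Gpc3 stood at 10.66, 8.20, 5.55 and 4.93. The smooth muscle actin Acta2 (11.91, 12.68, 6.46 and 6.58) and the actin-binding Tagln (11.05, 11.37, 5.96 and 5.52) differed by -5.39 and -5.31, with osteoblasts above embryonic stem cells. The retinoic acid hydroxylase Cyp26a1 stood at 10.66, 4.61, 4.87 and 4.84, high in embryonic stem cells alone of the 4 arrays.

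**Figure D3:**
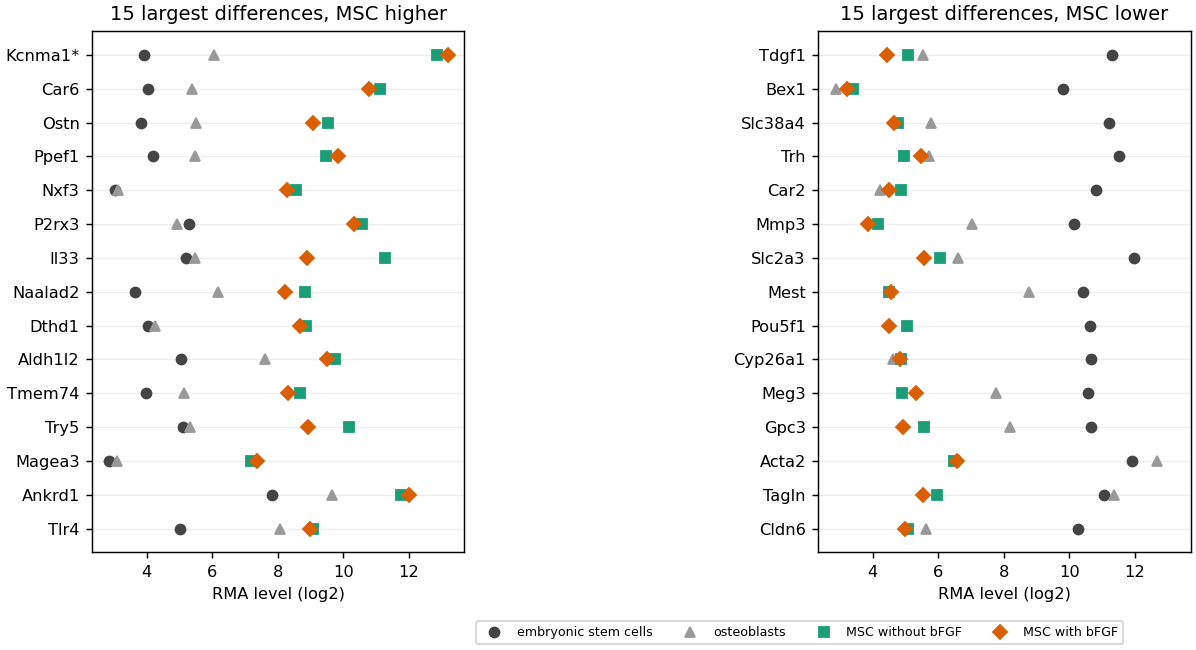
RMA level (log2, horizontal axis) in the 4 arrays for the 15 genes with the largest differences in each direction. In the left panel both MSC symbols lie to the right of embryonic stem cells for every gene, and in the right panel to the left, while the osteoblast symbols of Acta2 and Tagln lie with embryonic stem cells; the asterisk marks the probe set annotated to Kcnma1 that has no RefSeq accession.

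Pluripotency factors were lower as a group: of 28, 16 were called lower and 1 higher, with a median of -2.10. The zinc finger factor Sall4 stood at 9.81, 5.85, 5.81 and 5.29, and Mycn, which drives proliferation of these cells, at 9.55, 5.85, 5.49 and 5.96. Lin28a, which blocks maturation of let-7, stood at 9.75, 6.45, 6.06 and 6.12. The embryonic stem cell array was well above the other 3 for each of them. Utf1 (-3.62), Nr0b1 (-3.23), Trim71 (-2.94), Sall1 (-2.42), Mybl2 (-2.17), Lin28b (-2.04), Gdf3 (-1.96), Zscan10 (-1.59) and Tfcp2l1 (-1.49) were also called lower. A further 6 members were under the floor in embryonic stem cells themselves, among them Zfp42 (6.02), Esrrb (6.40) and Prdm14 (5.74), genes of the naive state, and Fbxo15 (5.67). Klf4 was the 1 member called higher (1.28). Klf2 (8.23, 8.12, 8.61 and 9.10), Klf5 (9.12, 6.55, 8.29 and 8.62), Tbx3 (7.66, 6.46, 7.27 and 6.62), Rif1 (8.47, 6.22, 7.74 and 8.04) and Tcea3 (-0.90) were not called.

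Of 28 genes of LIF, Nodal and BMP signalling 11 were called lower and 0 higher (median -0.93), and of 22 lineage factors 12 and 0 (median -1.43); the other members were not called. The Nodal antagonists Lefty2 (9.33, 3.93, 4.50 and 3.71) and Lefty1 (9.52, 5.78, 5.01 and 4.62) were high in embryonic stem cells alone. Fgf5, a marker of primed cells, stood at 9.68, 5.47, 5.39 and 5.51. Among the lineage factors, the mesendoderm genes Mixl1 (9.86, 5.31, 5.21 and 5.24) and Eomes (9.19, 4.85, 4.78 and 4.76) and the neural plate gene Otx2 (9.35, 4.83, 4.94 and 5.09) were high in embryonic stem cells and under the floor elsewhere. Of 15 primitive endoderm and trophoblast markers 7 were called lower. Of 24 germ line genes 0 were called and 0 were above the floor in any array.

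Among the DNA methylation and Dppa genes, taken as 1 list, 12 of 18 were called lower and 2 higher (median -1.36). The de novo methyltransferase Dnmt3b stood at 9.89, 5.50, 5.40 and 5.49, and Dppa5a at 10.14, 5.10, 4.82 and 5.12. Uhrf1, which guides maintenance methylation at replication forks, stood at 9.31, 8.02, 5.54 and 6.78, so that osteoblasts lay nearer to embryonic stem cells. The methyl-CpG reader Mbd2 was higher (8.77, 10.04, 10.49 and 10.45). Of 26 Polycomb and remodelling genes 7 were lower and 2 higher (median -0.50): the PRC2 cofactor Jarid2 stood at 9.60, 7.05, 5.98 and 6.43, while the PRC1 subunits Bmi1 (7.72, 8.69, 9.86 and 9.83) and Cbx8 (6.04, 6.66, 7.33 and 7.42) were higher.

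Epithelial genes were lower and mesenchymal genes mixed. Of 32 junction and keratin genes 19 were called lower and 0 higher (median -1.70). The adhesion protein Epcam stood at 9.61, 5.21, 5.17 and 5.19 and the simple-epithelium keratin Krt8 at 11.04, 6.88, 6.83 and 6.90, with Krt19 and Krt18 at -4.38 and -4.29. Of 29 mesenchymal transition genes 3 were called higher and 9 lower (median -0.35), and with a loess curve removed 1 and 11. The transcription factors Snai2 (6.97, 9.11, 9.39 and 9.14) and Zeb2 (7.29, 8.83, 8.55 and 8.40) were higher, and the mesenchymal cadherin Cdh11 was lower (10.00, 11.70, 8.18 and 7.64).

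MSC surface markers did not stand above embryonic stem cells. Of 23, 0 were called higher and 3 lower, with a median of -0.40, and 18 were above the floor in embryonic stem cells against 11 and 17 in MSC without and with bFGF. Thy1 (CD90) stood at 8.82, 8.86, 6.04 and 5.54, Mcam (CD146) at 8.15, 8.87, 6.23 and 6.70, and the integrin Itga5 at 9.91, 9.31, 8.36 and 8.87. These are the 3 called lower. Cd44 (9.09, 9.36, 8.51 and 8.87), Pdgfra (8.14, 7.75, 7.86 and 7.63) and Vcam1 (8.22, 10.10, 8.77 and 8.84) differed by less than 2-fold. Anpep (CD13) stood at 6.81, 8.06, 6.01 and 8.77, below embryonic stem cells without bFGF and above them with it. Alcam was higher by 1.16 as a mean and was not called, and Lepr, Enpep and Cd200 were under the floor in all 4 arrays. The part of the stromal transcripts of the embryonic stem cell array in these values was not tested.

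Marrow niche factors were mostly not called. Of 25, 4 were called higher and 2 lower (median -0.24). The stem cell factor Kitl, which maintains blood stem cells, stood at 6.21, 6.17, 8.73 and 9.15, and Csf1, the growth factor of macrophages, at 9.02, 10.12, 10.75 and 11.13. Nr2f2 (1.81) and Flt3l (1.03) were the others called higher. Gas6 (8.65, 10.51, 5.67 and 6.51) and the Notch ligand Jag1 (8.53, 8.66, 6.97 and 6.71) were lower. The chemokine Cxcl12, which retains blood stem cells in marrow, stood at 6.32, 6.60, 5.81 and 5.75, under the floor in the arrays compared. The BMP antagonist Grem1 was high in both cell types (11.18, 8.78, 10.87 and 10.11). The other members ranged from -1.10 for Ccn3 to 0.80 for Ebf3, and those under the floor in the arrays compared included Angpt1, Il7, Il6, Csf2, Csf3 and Hgf.

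Matrix and contractile genes were mostly lower or uncalled. Of 24 collagens 8 were called lower and 0 higher (median -0.36), of 34 matrix glycoproteins 16 and 0 (median -1.13), and of 21 smooth muscle genes 11 and 0 (median -1.23). Col12a1 stood at 9.18, 10.10, 5.54 and 5.41, whereas the type I chain Col1a2 (10.89, 12.98, 12.16 and 11.66) was not called, with a mean difference of 1.02. The hyaluronan synthase Has2 stood at 9.57, 8.64, 4.71 and 5.86 and Thbs2, a thrombospondin of the matrix, at 9.91, 11.79, 7.15 and 6.59. The calponin Cnn1 (8.25, 8.40, 4.88 and 4.91) and the myosin light chain Myl9 (9.61, 10.16, 6.26 and 6.09) had the pattern of Acta2, with osteoblasts level with or above embryonic stem cells. Of 27 proteases and inhibitors 4 were higher and 7 lower, with Mmp13 at 9.76, 9.50, 5.39 and 6.10 and Mmp19 at 6.82, 8.17, 9.24 and 8.63. Of 20 fibroblast and feeder cell markers 8 were lower and 1 higher, with a median of -0.56 without and -1.25 with bFGF. In lists of differentiated progeny, 1 was higher and 3 lower of 17 osteoblast genes, 1 and 0 of 20 chondrocyte genes, and 0 and 2 of 24 adipocyte genes. Of these lists 6, 8 and 13 members were above the floor, and the others could not be called.

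Genes of cell division were lower almost throughout. Of 45 mitotic spindle and kinetochore genes 43 were called lower and 0 higher, with a median of -2.91 without and -2.18 with bFGF. All 45 were above the floor in embryonic stem cells, against 34 in osteoblasts, 13 in MSC without bFGF and 26 with it. The mitotic kinase Plk1 stood at 10.25, 8.61, 5.32 and 6.65 and the microtubule-depolymerising kinesin Kif2c at 8.85, 6.90, 4.60 and 5.82. Both were lowest without bFGF, intermediate with it, and higher in osteoblasts than in either MSC array. Of the genes whose promoters are printed, the condensin subunit Ncapg stood at 8.64, 6.59, 4.35 and 5.60, the topoisomerase Top2a at 10.34, 8.98, 5.93 and 7.79, and the spindle motor Kif11 at 8.89, 7.48, 5.01 and 6.23. The members not called were Ube2c (6.74, 6.11, 5.22 and 6.50) and Bub3 (10.00, 9.97, 10.09 and 10.22).

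DNA replication genes followed with smaller differences: 27 of 43 were called lower and 0 higher (median -1.45). The ribonucleotide reductase subunit Rrm2 stood at 9.61, 8.47, 6.50 and 7.43 and the helicase subunit Mcm3 at 9.64, 8.70, 6.67 and 7.86. Only Cdt1 (8.86, 8.43, 10.04 and 9.44), which loads that helicase, and Orc2 (8.75, 7.83, 9.36 and 9.44) were above 0. Of 27 repair and telomere genes 13 were lower and 1 higher, with the shelterin genes on both sides: Terf1 stood at 9.46, 6.80, 6.62 and 7.01 and Pot1a at 7.17, 6.85, 8.46 and 8.54. Of 27 CDK inhibitors and p53 targets 5 were higher and 2 lower (median 0.25). Gadd45a stood at 8.99, 9.42, 11.96 and 11.42, and the inhibitor Cdkn2b, which blocks Cdk4 and Cdk6, at 8.04, 8.85, 10.52 and 9.72. Sesn2 (2.35), Cdkn2c (1.75) and Plk2 (1.54) were also higher. Perp (8.65, 8.79, 4.84 and 4.94) and the imprinted inhibitor Cdkn1c (9.69, 7.56, 6.15 and 6.64) were lower.

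**Figure D4:**
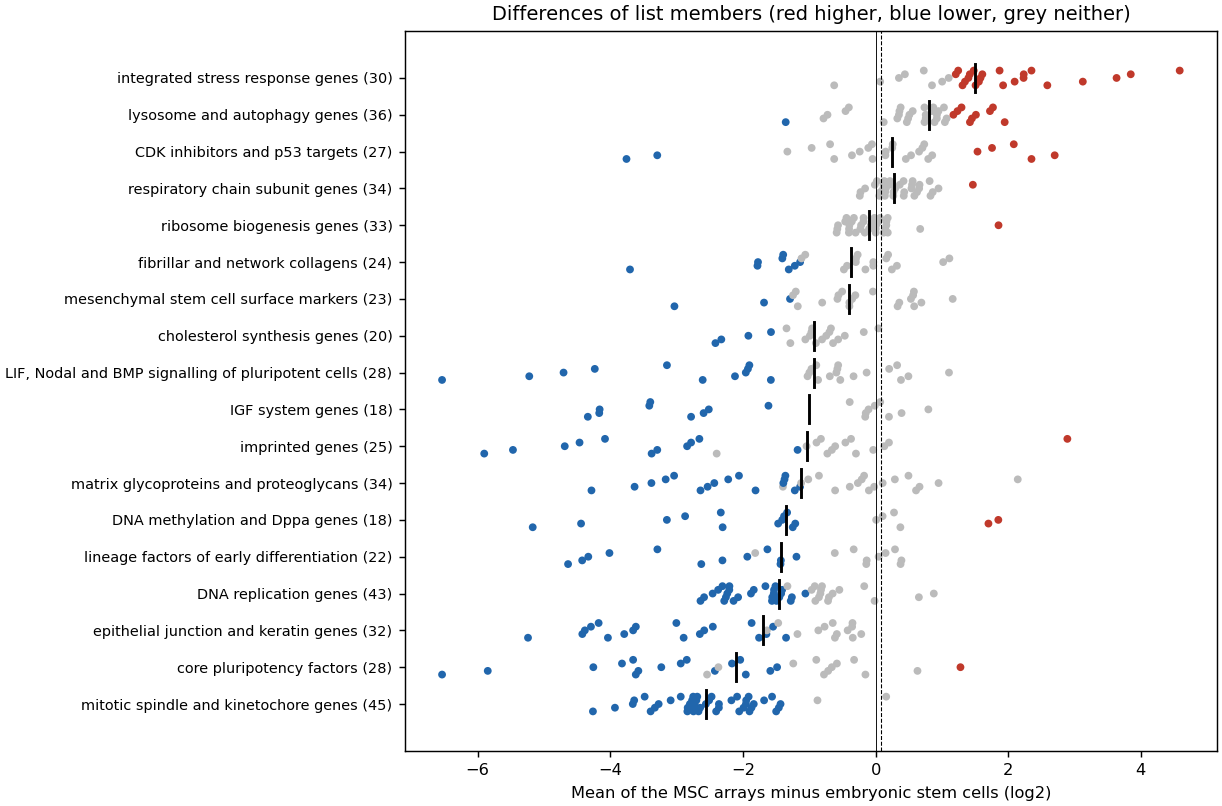
Mean of the MSC arrays minus embryonic stem cells (log2) for each measured member of 18 gene lists, with members called higher in red, lower in blue and neither in grey; the thick bar is the list median, the dashed line the median of genes above the floor (0.08), and the number of members is in parentheses. Stress response genes lie to the right (median 1.49) and mitosis genes to the left (median -2.56).

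Genes of the integrated stress response, which slows translation and makes amino acids when nutrients or protein folding fail, were higher. Of 30, 22 were called higher and 0 lower, with a median of 1.49, and 29 were above 0. The pseudokinase Trib3 stood at 6.70, 8.38, 10.56 and 10.54, the transcription factor Ddit3 (CHOP) at 6.65, 8.02, 9.73 and 9.82 and Atf4 itself at 8.68, 9.22, 10.30 and 10.22. The MSC arrays lay close together and above osteoblasts for all of them. Of the genes whose promoters are printed, Atf3 stood at 6.78, 9.55, 10.17 and 10.66, and Nupr1, Chac1 and Pck2 differed by 2.23, 2.23 and 2.10. The mitochondrial folate enzyme Aldh1l2 had the largest difference of the list (4.59). Asns (10.49, 11.04, 10.79 and 10.88), the asparagine synthetase, and Ddit4 (8.95, 8.43, 8.22 and 8.43) were not called.

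Amino acid transporters differed both ways, with 6 higher and 5 lower of 23 (median 0.09). The cystine carrier Slc7a11 stood at 7.14, 7.97, 10.58 and 10.63 and the glutamine carrier Slc1a5 at 8.09, 8.10, 10.70 and 10.51, while Slc7a7 was lower (8.96, 7.50, 4.78 and 5.42). Of 25 one-carbon and nucleotide genes 4 were higher and 5 lower. The 4 higher genes, among them Mthfd2 (8.57, 9.20, 10.48 and 10.50), are also members of the stress response list. The glycine cleavage genes Gldc (8.75, 5.97, 5.57 and 5.19) and Amt (8.14, 5.76, 5.91 and 5.29) were lower. Of 32 NRF2 antioxidant genes 7 were higher and 5 lower, with Hmox1 higher by 1.70 and Nqo1 lower (9.15, 8.95, 5.08 and 4.23).

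Of 36 lysosome and autophagy genes 9 were higher and 1 lower (median 0.80), but 6 were higher with a loess curve removed. The hexosaminidase Hexa stood at 9.42, 11.70, 11.27 and 11.46 and the autophagy receptor Sqstm1 at 10.71, 11.33, 12.54 and 12.43. Of 20 cholesterol synthesis genes 4 were lower and 0 higher (median -0.93), with 6 lower when differences were centred or quantile normalization was repeated and 8 with the loess curve removed. Idi1 stood at 9.30, 7.51, 6.25 and 7.70. Of 34 respiratory chain genes Ndufb9 alone was called (8.57, 8.72, 10.07 and 10.00), and it was higher. The ribosome biogenesis list of 33 also holds the transcription factor Myc. Myc was its only member called, also higher (9.05, 9.06, 10.78 and 11.03). Of 31 glycolysis and hypoxia genes 2 were higher and 5 lower.

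Of 25 imprinted genes 11 were called lower and 1 higher (median -1.04), and the rest were neither. Peg3 stood at 9.82, 7.74, 5.14 and 5.12 and Ndn at 9.53, 10.25, 4.71 and 5.42, and Sgce was higher (6.98, 8.98, 10.14 and 9.61). Of 18 IGF system genes 9 were lower and 0 higher (median -1.004), with the binding protein Igfbp2 at 10.26, 11.79, 5.76 and 6.08 and the RNA-binding Igf2bp3 at 8.77, 7.99, 4.83 and 4.37. For Ndn and Igfbp2 osteoblasts stood above embryonic stem cells. Of 33 Wnt genes 11 were lower and 1 higher (median -0.69): the inhibitor Sfrp1 stood at 8.37, 6.28, 5.00 and 4.78, the agonist Rspo3 at 7.88, 8.19, 4.69 and 5.18, and Wnt7b at 6.23, 6.57, 8.63 and 7.58.

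Hox genes give cells their position along the body. Of 39 measured genes of the Hox list, which also holds the cofactor Meis2, 5 were called higher and 1 lower (median 0.05). Of the 39, 16 were above the floor, and the others could not be called. The homeobox cofactor Meis2 stood at 6.05, 6.97, 8.54 and 8.26, Hoxd8 at 5.48, 4.79, 7.64 and 7.51, and Hoxc9 at 6.14, 5.73, 7.78 and 7.59. Hoxd8 and Hoxc9 were under the floor in embryonic stem cells and in the calvarial osteoblasts. Hoxd10 was lower (6.83, 5.37, 5.70 and 5.03).

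Of 26 macrophage markers 0 were called higher and 2 lower, but the list median was -0.60 without and 1.92 with bFGF. The lower ones were Adgre1 (9.05, 11.16, 5.69 and 7.71) and Mrc1 (6.76, 10.40, 4.63 and 4.92), and Ptprc stood at 6.02, 9.77, 6.08 and 9.40. Of other blood lineages, 3 of 7 megakaryocyte markers were lower, among them Ppbp (8.79, 5.95, 4.43 and 4.13), and 2 of 11 mast cell markers, Mcpt8 (9.48, 7.90, 5.83 and 5.00) and Kit (8.05, 5.38, 5.34 and 5.71). Of 35 chemokine and cytokine genes 4 were higher and 2 lower. None of 6 erythroid, 13 lymphocyte or 15 neutrophil markers was called. Of these lists 1, 0 and 1 members were above the floor, and the others could not be called.

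Transcripts of the sex chromosomes differed among the cultures, whose sex the labels do not give. The Y-linked genes Eif2s3y (7.97, 6.81, 3.91 and 4.15) and Uty (7.22, 6.33, 3.61 and 4.45) fell short of the floor in either MSC culture and were called lower. Xist, the RNA of the inactive X, stood at 7.23, 7.88, 5.50 and 8.09, under the floor without bFGF. Of the other 10 members of the list, Zfy2 was lower by more than 2-fold without reaching the floor (5.32, 2.88, 2.83 and 3.55), Kdm5c differed by -0.89 and Kdm6a by 0.52, and none was called.

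By chromosome, the median difference of 10622 placed genes above the floor lay between -0.26 and 0.34 on the autosomes. Chromosome 14 was lowest (-0.31 without and -0.27 with bFGF, 359 genes) and chromosome 19 highest (0.30 and 0.32, 380 genes); the X stood at -0.33 and -0.35 (317 genes). On chromosome 14, 3.06% of genes were called higher and 14.8% lower, and 69.1% were below 0, against 30.8% on chromosome 19. Over all genes above the floor 4761 of 10638 were below 0. The share called lower was 18.9% on the X. The share called higher was 12.9% on chromosomes 3 and 6 and 12.1% on chromosome 19. The same medians for osteoblasts were -0.03, -0.05 and -0.04 for chromosomes 14, 19 and X. Chromosomes 3, 6, 14, 19 and X were each cut into 4 equal runs of genes, a step added after the data were seen. The medians were -0.12, -0.23, -0.46 and -0.26 on chromosome 14 and 0.27, 0.32, 0.48 and 0.28 on chromosome 19. They were 0.282, 0.091, 0.104 and 0.345 on chromosome 3, and 0.500, 0.277, 0.076 and 0.035 on chromosome 6. On the X they were -0.28, -0.09, -0.31 and -0.45. The median of all genes above the floor was 0.084, so the last runs of chromosome 6 lay below it. The cut followed the chromosome values, so the runs are a description and no separate check of them.

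**Figure D5:**
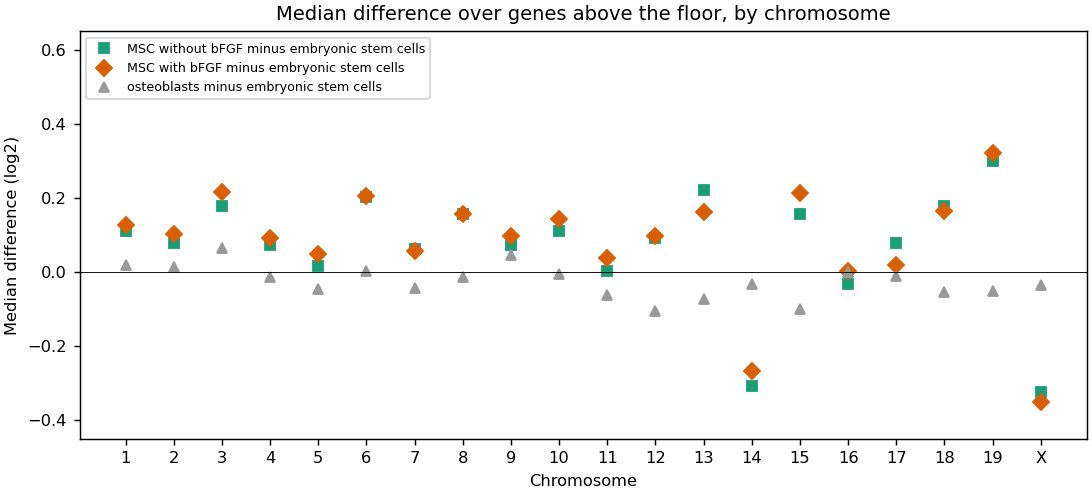
Median difference from embryonic stem cells (log2) over genes above the floor, by chromosome, for MSC without bFGF, MSC with bFGF and osteoblasts. The MSC symbols of chromosome 14 and the X lie below -0.2 and those of chromosome 19 at or above 0.30, while the osteoblast symbols stay between -0.11 and 0.07.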

How the data were processed

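Gene expression was measured on Affymetrix whole-transcript gene arrays, 1 per group. The deposited levels are on a log2 scale, inferred from their range of 1.40 to 14.28, and per the submitters' processing notes the authors made them with Affymetrix Expression Console and RMA. For software versions and genome build the sources used here give nothing. RMA makes arrays alike in distribution, so a general change in transcripts per cell would not show, and differences near background are compressed. Precision is limited by the number of arrays.

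Of 35556 probe sets, 21789 had 1 symbol in the platform annotation, 1621 several and 12146 none. A gene with several single-symbol probe sets (999 of 19938) took the one whose mean level over all arrays was highest; for 550 genes that probe set carries no RefSeq accession. Differences, floors and calls were computed as the report states, with no test. The members and the 53 gene lists were chosen with earlier results of these data known. Genes named were the 15 largest differences each way, up to 5 members each way of a list, members of the pluripotency, surface marker, sex chromosome and niche lists, 6 genes of opposite direction and those beside the threshold, with some left out; Bub3, Ube2c, Kif11, Nupr1, Chac1, Pck2, Asns, Fgf21, Gars, Ddit4, Hmox1, Col1a2, Krt8, Ptprc and the microRNA genes were added after values were seen or through the promoter rule. Runx2 was not analysed here. Promoters and microRNAs were matched by symbol to RefSeq tables (GRCm38.p6); 1395 of 1785 called genes had a promoter.

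Calling was tested on simulated data for the comparison of MSC with embryonic stem cells over 19938 genes with noise of SD 0.3. Of 100 genes raised by 2, 99 were called; of 100 lowered by 2, 88, with 10 of the rest under the floor. Among the unchanged genes 14 were called higher and 16 lower. The simulated arrays were the embryonic stem cell levels plus independent noise of a chosen size, so they do not measure variation between cultures. Changed genes were drawn from those above the floor in embryonic stem cells, unlike 262 of the 800 genes called higher in the data. Alternatives were other floors, folds, scalings, probe set means and each MSC array alone. Software was matplotlib 3.10.9, statsmodels 0.14.6, scipy 1.17.1, pandas 2.3.3 and numpy 2.4.6 under Python 3.11.15.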

Additional observations from a re-analysis of the deposited data

Results flagged for a closer look

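A total of 12 genes were 2-fold or more lower than embryonic stem cells in MSC without bFGF and 2-fold or more higher in MSC with bFGF, and none was the other way round. They stand out because the 2 MSC arrays moved in opposite directions; with 1 array each, the difference between them was not tested. The largest gap between the MSC arrays was that of Cybb, the catalytic subunit of the phagocyte oxidase, which stood at 7.66, 11.29, 5.71 and 9.29 in embryonic stem cells, osteoblasts, MSC without and MSC with bFGF, a gap of 3.58. Cfp, the complement protein properdin, had a gap of 3.11 and the metalloprotease Adam8 of 3.01. The complement chains C1qb and C1qc had gaps of 2.98 and 2.76, and the urokinase Plau of 2.71. Of the 12 genes, 3 belong to the macrophage marker list.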

How the results depend on the processing

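The count of genes called higher was 1946 at 1.5-fold, 143 at 4-fold and 526 with a floor at the 75th percentile, and 1139 to 1236 with either MSC array left out. The count called lower was 1696, 335 and 513 under the same settings and 1156 to 1298 with an array left out. The count of genes 2-fold apart in opposite directions, 12, was 39 at 1.5-fold, 0 at 4-fold and 2 with the higher floor. Under centring, loess, quantile normalization, probe set means, no floor, and the mean of the MSC arrays alone, the called counts stayed within 1.5 times the reported ones (639 to 1039 higher, 979 to 1177 lower), as they did without genes 2-fold apart between the MSC arrays, an alternative chosen after the data were seen (786 and 918), and with probe sets that carry a RefSeq accession alone, also chosen afterwards (795 and 979). When probe sets were averaged the difference of Kcnma1, 9.08, was 4.72 and that of P2rx3, 5.16, was 2.65; those of Il33 and Try5 ran from 3.69 to 6.07 and from 3.79 to 5.05 over the MSC arrays. The median of the macrophage list, 0.49, was -0.60 for MSC without bFGF alone and 1.92 for MSC with bFGF alone, and that of the fibroblast and feeder list, -1.12, was -0.56 and -1.25. Leaving out members under the floor, which keeps genes through the array where they are high, moved the medians of 18 lists: the imprinted list went from -1.04 to -2.72, the epithelial list from -1.70 to -2.62, the IGF list from -1.004 to -1.62, the collagens from -0.36 to -0.77, the Hox genes from 0.05 to 0.62 and the niche factors from -0.24 to 0.21, a change of sign. The mast cell, erythroid and neutrophil lists changed sign too, to -2.52, -0.72 and 1.18, but only 3, 1 and 1 of their members were above the floor. No paired analysis was possible because each group has 1 array. Levels near the floor limit the size of differences, and depth does not apply to arrays.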
